A study of Drosophila melanogaster with 6 samples.

Results

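The Hox genes of Drosophila melanogaster lie in 2 clusters on chromosome arm 3R, the Antennapedia complex and the bithorax complex, and they were examined here for sites called by chromatin immunoprecipitation and sequencing (ChIP-seq) of Yorkie (Yki). Of the 5136 Yki peaks deposited by the authors, 29 overlapped the 2 complexes by at least 1 bp. The bithorax complex, taken as 3R from 12480000 to 12810000, held 14 peaks, and the Antennapedia complex, taken as 3R from 2480000 to 2830000, held 15. These windows and all positions below follow FlyBase release 5 and are 1-based, and 708 further peaks of 3R lay outside them. The windows fixed the peaks by position alone, and no score was used to choose them.

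Hox genes encode homeodomain transcription factors that give the segments along the head-to-tail axis their identity. In each complex the order of the genes largely follows the order of the body regions they specify. In the Antennapedia complex, lab acts in the embryonic head, pb in the adult mouthparts, Dfd in the mandibular and maxillary segments, Scr in the labial segment and the prothorax, and Antp in the thorax. In the bithorax complex, Ubx specifies the posterior thorax and the anterior abdomen, abd-A the middle abdomen and Abd-B the posterior abdomen. Both complexes carry long stretches of regulatory DNA and are textbook targets of Polycomb repression. Yki is the transcriptional coactivator through which Hippo signalling controls growth. It does not bind DNA itself and reaches it through partners such as Scalloped and the Hox cofactor Homothorax.

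The study profiled 8 to 16 h embryos with 3 Yki ChIP libraries and 3 input DNA libraries, all from the same y; cn bw sp strain. Its labelled genotype, shared by ChIP and input, has y[1] and oc[R3.2] on the X. The second chromosome carries cn[1], bw[1] and sp[1], with Gr22b[1] and Gr22d[1] and also CG33964[R4.2]. The third carries lab[R4.2] and Rh6[1], together with LysC[1], GstD5[1] and MstProx[1]. An allele of a Hox gene, lab[R4.2], is thus present in every library, and what it changes is not stated in the labels. The antiserum was a crude rabbit polyclonal raised against full-length Yki, and embryos were fixed in 1.8% formaldehyde for 15 min. The chromatin came from whole embryos, so a site occupied in few cells and a site weakly occupied in many cannot be told apart.

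The deposited list gives each peak a start, an end and 1 score from the peak caller MACS, with no value per library. The sources used here do not state the scale of the score, so it served only to rank and describe peaks within this list, where it ran from 5.94 upwards around a median of 30.1. No spread between replicates could be measured and no difference below has a replicate check, and the read depth of the libraries is unknown. Intervals are exact 95% intervals that cover counting error over peaks only, and neighbouring peaks are not independent.

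All 8 Hox genes were found in the RefSeq gene table at hand, which follows release 6 and was used for gene order only. In it the bithorax complex runs from Ubx through abd-A to Abd-B with rising coordinate, and 6 protein-coding genes lie between the outer ends of Ubx and Abd-B. The other 3 are CG31275 and Glut3, between Ubx and abd-A, and MSAmiP, which follows abd-A. The noncoding genes there include lncRNA:bxd, next to Ubx, and the microRNA genes mir-iab-4 and mir-iab-8, between abd-A and Abd-B. The Antennapedia complex runs from lab through pb, Dfd and Scr to Antp and holds 20 protein-coding genes between its outer ends. Those between lab and pb are Edg84A and the Ccp84A cuticle protein cluster. Between pb and Dfd lie the protein-coding genes zen2, CG34297, zen, bcd and Ama. The genes zen and bcd encode homeodomain proteins of early embryonic patterning and no longer act as homeotic genes. The pair-rule gene ftz lies between Scr and Antp, and mir-10 between Dfd and Scr. Gene positions of release 5 were not used here, so no peak was assigned to a gene, and the Ubx, Abd-B, lab and Antp ends name only the sides of the windows.

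The 3 highest peak scores found in the complexes were in the bithorax complex. Its strongest peak lay in the part towards the Ubx end, at 12528384 to 12529122, with a width of 739 bp and a score of 252.28. That peak ranked 115 in the whole list and 15 of the 737 peaks on 3R. The second, at 12724153 to 12725770 in the part towards the Abd-B end, was the widest of the complex at 1618 bp, scored 237.48 and ranked 141 in the list. The third, at 12759838 to 12760790, also lay in the Abd-B part, was 953 bp wide and scored 150.49, at rank 389. These 3 peaks stood well above the other 11 of the complex and held 43.9% of all the sequence its peaks covered.

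**Figure D1:**
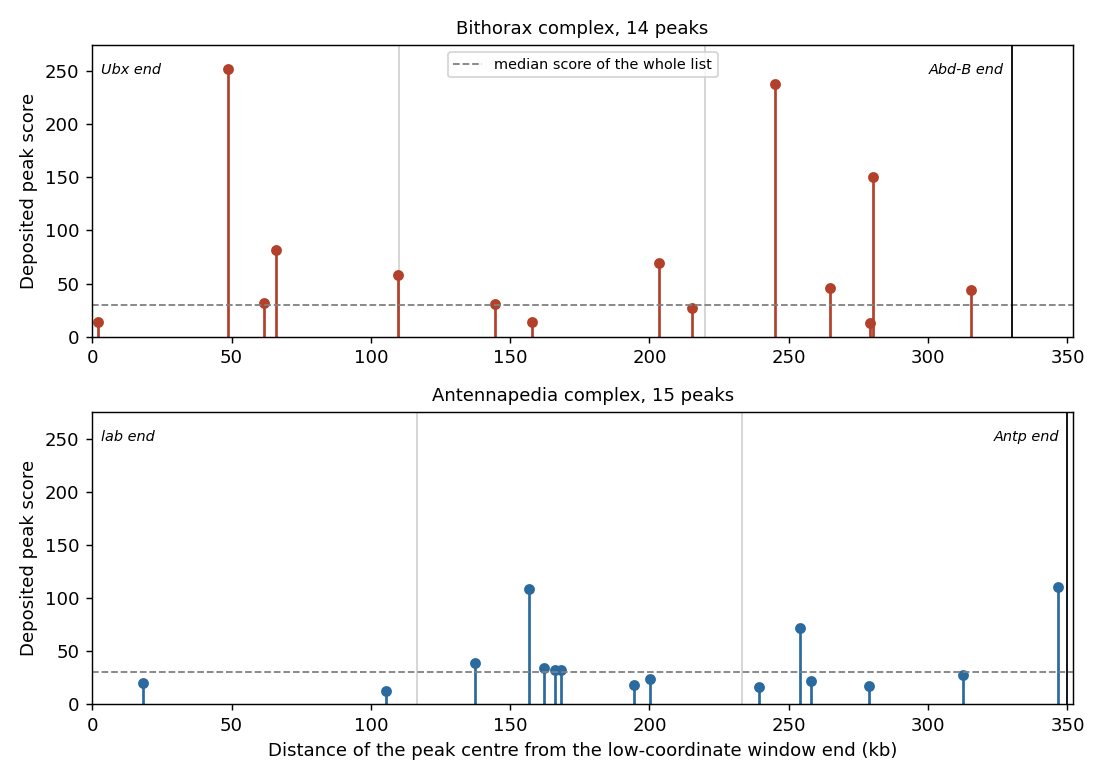
Each stem is 1 Yki peak, placed by the distance of its centre from the low-coordinate end of the window (kb) and with the deposited peak score as its height, for the bithorax complex (top) and the Antennapedia complex (bottom). Grey vertical lines divide each window into 3 equal parts, the black line marks its end, the dashed line is the list median of 30.1, and end names follow the gene order of the release 6 table. The 3 highest stems, at 252.28, 237.48 and 150.49, are in the bithorax complex, and the highest of the Antennapedia complex is 110.20.

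The remaining bithorax peaks spanned the whole window. Towards the Ubx end, the peak at 12481947 to 12482168, just inside the window, scored 13.67. In the same part was a close pair, of which the peak at 12541382 to 12541775 scored 31.92 and that at 12545542 to 12545992 scored 81.37. A peak of 733 bp at 12589341 to 12590073, across the boundary with the middle part, scored 57.91. It was wide for its score, since the strongest site of the complex was hardly wider.

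The middle part of the bithorax window held only modest sites. The strongest of them, at 12683300 to 12683681, scored 69.70. The others scored 30.68 at 12624244 to 12624758, 14.02 at 12637639 to 12637922 and 26.98 at 12695070 to 12695359. The median of these 4 peaks was 28.8, against 57.9 over the 5 peaks of the Ubx part and 45.8 over the 5 of the Abd-B part. In the Abd-B part, a peak at 12744764 to 12745096 scored 45.84 and the outermost, at 12795343 to 12795688, scored 44.36. The weakest of the complex, at 12759076 to 12759347, scored 12.94 and ended 0.49 kb before the peak of 150.49.

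The Antennapedia complex had a similar number of peaks but none that reached those 3 scores. Its strongest peak, at 2826298 to 2826909, scored 110.20 with a width of 612 bp and lay at the Antp end of the window, 3.09 kb from its edge. The next, at 2636316 to 2636810 in the middle part, scored 108.35. These ranked 736 and 769 in the list, and 99 and 106 on 3R. A peak at 2733847 to 2734342, in the part towards Antp, followed with 71.59. No other peak of the complex scored above 39.00.

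The middle part of the Antennapedia window held a run of 4 peaks within 12.0 kb. It opened with the peak of 108.35. After it came a peak scoring 34.24 at 2642055 to 2642591, and then peaks at 2646008 to 2646405 and 2647911 to 2648336 that both scored 31.96. Equal scores are common in this list, in which 60.6% of peaks share their score with another and 13 peaks have this value. The other peaks of the middle part were at 2617263 to 2617636 with 39.00, at 2674359 to 2674687 with 17.85 and at 2680082 to 2680311 with 24.05. The middle part therefore held 7 of the 15 peaks, 5 of them in the upper 50% of the list by score.

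The part of the Antennapedia window towards lab was the emptiest of the 6 parts. Its 2 peaks, at 2498109 to 2498422 and at 2585266 to 2585466, scored 19.92 and 12.69, both under the list median, and the second was the weakest member of either complex and, at 201 bp, as narrow as any peak in the list. The gap between them, 86.8 kb, was the longest inside either window, although 13.0% of the 736 gaps on 3R were at least as long. Before the first peak lay a still longer stretch, 246 kb without a called peak, of which 228 kb is outside the window; only 7 gaps on 3R were as long or longer, this one included. Towards Antp, besides the peaks of 71.59 and 110.20, there were 4 weak sites. They were at 2719044 to 2719281 with 15.89, at 2737931 to 2738214 with 21.50, at 2758799 to 2759087 with 17.35 and at 2792461 to 2792772 with 27.28.

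The peaks just outside the windows were weak, with 1 exception. Nearest to the bithorax window were a peak of score 22.08 at 12399517 to 12399829, 80.2 kb before it, and a peak of 11.44 at 12813422 to 12813650, 3.42 kb after it. The nearest to the Antennapedia window were a peak of 17.82 at 2251447 to 2251811 and a peak of 106.62 at 2862885 to 2863518, 32.9 kb beyond the Antp end. The last of these scored nearly as high as the strongest member of the complex.

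The complexes did not differ detectably in the number of peaks. The bithorax complex had 42.4 peaks per Mb (95% interval 23.2 to 71.2) and the Antennapedia complex 42.9 (24.0 to 70.7). The ratio of bithorax to Antennapedia density was 0.990 (0.443 to 2.20), an interval wide enough to hold more than a doubling in either direction. The peaks covered 2.28% of the bithorax window and 1.58% of the Antennapedia window, beside 1.47% of the rest of 3R.

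The scores differed more than the numbers, but with wide overlap. The median was 45.1 (exact interval of the median 14.02 to 150.49) over the 14 bithorax peaks and 27.3 (17.85 to 39.00) over the 15 Antennapedia peaks, a difference of 17.8, bithorax minus Antennapedia. Quartiles were 27.9 and 78.5 in the bithorax complex and 18.9 and 36.6 in the Antennapedia complex. The intervals of the medians overlap, and the lowest scores, 12.94 and 12.69, were alike. With the peaks of each complex put in order of score, the bithorax peak was the higher at the first 11 ranks and the lower at ranks 12 to 14.

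**Figure D2:**
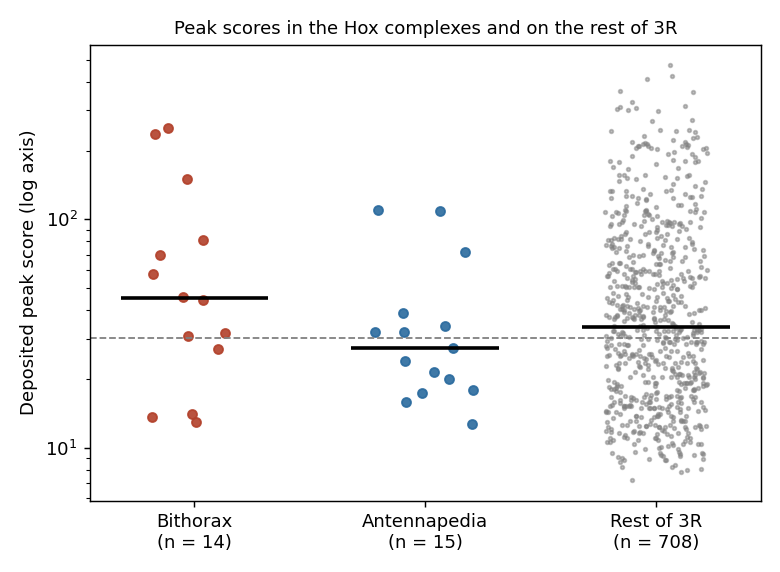
Deposited score of each peak (log axis) in the bithorax complex, the Antennapedia complex and the rest of 3R; points are spread sideways at random, black bars are medians (45.1, 27.3 and 33.7) and the dashed line is the list median. The groups overlap over most of their range, and 3 bithorax peaks lie above every Antennapedia peak.

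Counts of strong peaks showed the same contrast and the same uncertainty. In the upper 50% of the list by score were 10 of 14 bithorax peaks, or 71.4% (exact Clopper-Pearson interval 41.9 to 91.6%), and 7 of 15 Antennapedia peaks, or 46.7% (21.3 to 73.4%), beside 54.9% of the 708 other peaks of 3R. In the upper 25%, from a score of 72.8, were 4 bithorax peaks, or 28.6% (8.39 to 58.1%), and 2 Antennapedia peaks, or 13.3% (1.66 to 40.5%), beside 24.7% on the rest of 3R. In the upper 10%, a threshold chosen after seeing the data, were 3 bithorax peaks, or 21.4% (4.66 to 50.8%), and 0 of 15 Antennapedia peaks, which allows a share of up to 21.8%, beside 10.3% on the rest of 3R. Each of these intervals includes the share of the rest of 3R, so no difference in peak strength between a complex and its arm was detectable with so few peaks. The lower quartile of the list, under a score of 16.1, held 3 of 14 bithorax and 2 of 15 Antennapedia peaks. By definition it holds about 25% of the whole list.

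Taken as a pair, the complexes carried more peaks than the average of 3R. Together they had 42.6 peaks per Mb (28.6 to 61.2), and the rest of 3R had 26.1 (24.2 to 28.1), a ratio of 1.64 (1.09 to 2.37). For each complex alone the interval included 1, with 1.63 (0.885 to 2.75) for bithorax and 1.64 (0.915 to 2.73) for Antennapedia. Peaks on this genome are unevenly spread, which these intervals do not cover. Among 358 windows of 330 kb tiled along the 5 large arms, 46, or 12.8%, held at least as many peaks as the bithorax complex. Among 338 windows of 350 kb, 48, or 14.2%, held at least as many as the Antennapedia complex. The median window of either length held 8 peaks, so the Hox complexes were dense in peaks but within the ordinary range of the arms.

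**Figure D3:**
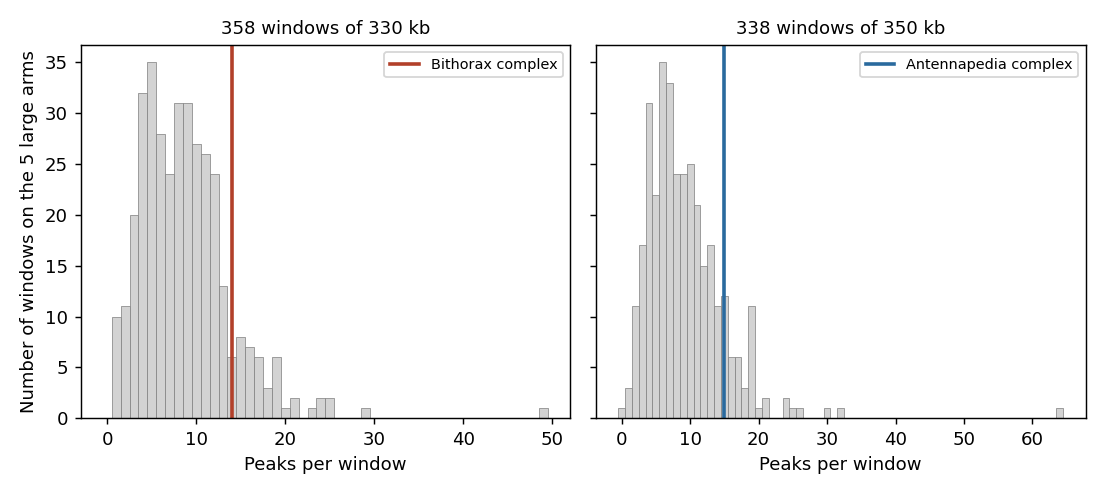
Number of Yki peaks in each non-overlapping window of 330 kb (left) and 350 kb (right) on arms 2L, 2R, 3L, 3R and X, as the number of windows with each peak count. The red line marks the 14 peaks of the bithorax complex and the blue line the 15 of the Antennapedia complex; 46 of 358 and 48 of 338 windows hold at least as many.

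The sequence beside the complexes held fewer peaks than the complexes themselves. Stretches of the same length next to the bithorax window had 6 peaks on the low-coordinate side and 7 on the high-coordinate side, against its 14. Those next to the Antennapedia window had 7 and 10, against its 15. The counting intervals of the complexes and their flanks overlap throughout. The 14 bithorax peaks, for instance, allow 7.65 to 23.5, and the 6 peaks of its low-coordinate flank allow 2.20 to 13.1. Overlap of separate intervals does not test a difference, and no density ratio to the flanks was computed. Flank scores reached 245.82 beside the bithorax complex and 204.29 beside the Antennapedia complex, so a site of high score was not confined to the complexes.

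The spacing of peaks, and its order between the complexes, depended on the distance used. In the bithorax complex 4 of 14 peaks, or 28.6% (8.39 to 58.1%), had another peak within 10 kb, and 8 of 15, or 53.3% (26.6 to 78.7%), did so in the Antennapedia complex. On the rest of 3R the share was 62.7%, above the interval of the bithorax complex and inside that of the Antennapedia complex. With the windows widened by 25 kb at both ends, the bithorax share was 26.7%, for which no interval was computed. With the windows narrowed by 25 kb at both ends, it was 33.3% (9.92 to 65.1%), and its interval included 62.7%. Within 5 kb the shares were 28.6% (8.39 to 58.1%) for bithorax and 33.3% (11.8 to 61.6%) for Antennapedia, and both intervals included the 49.2% of the rest of 3R. Within 20 kb the order of the complexes turned round, with 12 of 14 bithorax peaks, or 85.7% (57.2 to 98.2%), and 10 of 15 Antennapedia peaks, or 66.7% (38.4 to 88.2%), beside 76.7% on the rest of 3R. For 8 of the 14 bithorax peaks the nearest neighbour was therefore between 10 and 20 kb away.

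**Figure D4:**
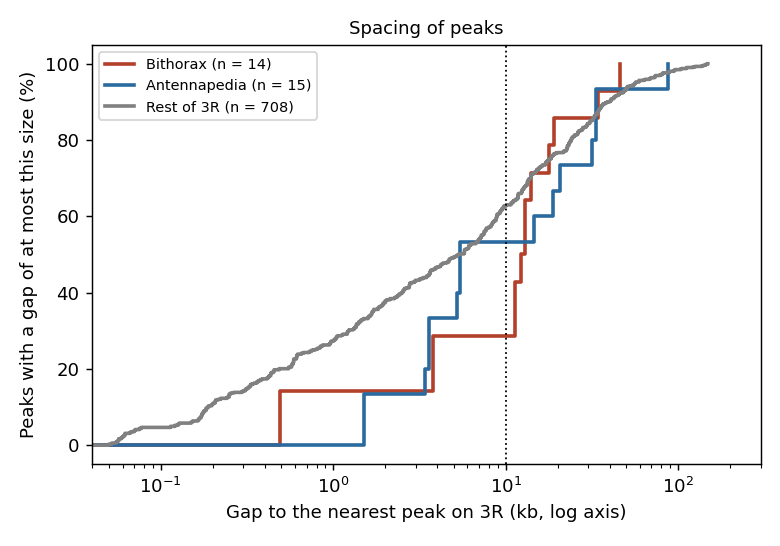
Cumulative share of peaks (%) whose nearest peak on 3R lies within a given gap (kb, log axis), for the bithorax complex, the Antennapedia complex and the rest of 3R; the dotted line is at 10 kb. At that gap the shares are 28.6%, 53.3% and 62.7%, and at 20 kb the bithorax share reaches 85.7%.

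With gaps of up to 10 kb bridged, the bithorax peaks formed 2 pairs and 10 single peaks. The Antennapedia peaks formed 3 runs and 7 single peaks, the longest run being that of 4 peaks in the middle part. The median gap between consecutive peaks was 19.0 kb in the bithorax complex and 19.6 kb in the Antennapedia complex, and 16.6 kb over all of 3R. Gaps of more than 30 kb numbered 5 of 13 in the bithorax complex and 5 of 14 in the Antennapedia complex. Over all of 3R, 279 of 736 gaps were that long, a similar share. The longest in the bithorax complex, 46.2 kb, lay between its first peak at the Ubx end and the strongest peak of the complex, and 25.3% of gaps on 3R were at least as long.

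No difference in peak width from the rest of the arm was detectable. The median width was 388 bp in the bithorax complex and 329 bp in the Antennapedia complex, beside 445.5 bp on the rest of 3R. Wider than the 3R median of 442 bp were 6 of 14 bithorax peaks, or 42.9% (17.7 to 71.1%), and 4 of 15 Antennapedia peaks, or 26.7% (7.79 to 55.1%), and both intervals included the 50.4% of the rest of 3R. Mean widths were 538 bp, 369 bp and 564 bp in the bithorax complex, the Antennapedia complex and the rest of 3R. Width and score went together, with a Spearman correlation of 0.86 across the bithorax peaks and 0.85 across the Antennapedia peaks, beside 0.74 across the rest of 3R. These are descriptions across 14, 15 and 708 peaks that share the same libraries and the same peak calling, which sets both the width and the score. The widest bithorax peak, of 1618 bp, was among the 20 peaks of 3R of at least that width.

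**Figure D5:**
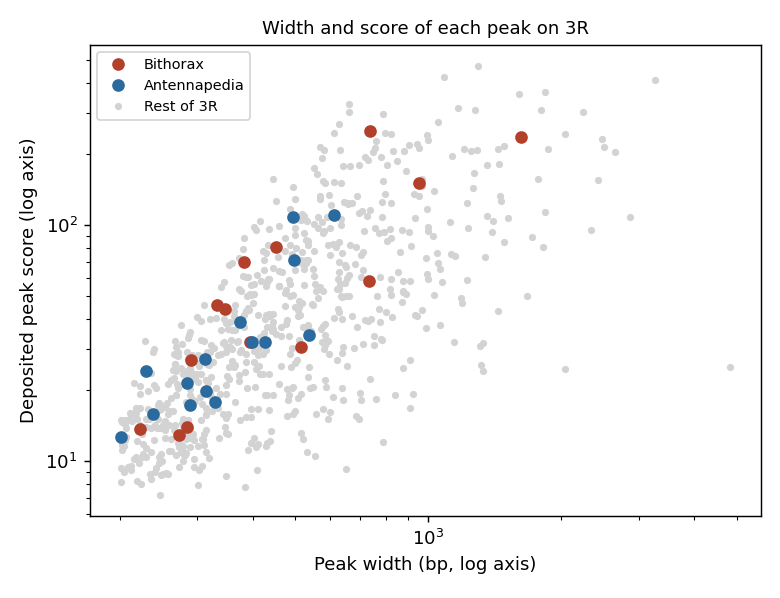
Width (bp, log axis) and deposited score (log axis) of each peak of the bithorax complex (red), the Antennapedia complex (blue) and the rest of 3R (grey). The 3 strongest bithorax peaks, 739 to 1618 bp wide, score above every Antennapedia peak, and every Antennapedia peak is at most 612 bp wide. Peaks on the rest of 3R are up to 4818 bp wide.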

How the data were processed

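The authors' deposited list holds 1 score per peak with start and end, in FlyBase release 5 coordinates from MACS, per the file headers. Per the submitters' processing notes, the tools were BWA, MACS2 and CASAVA (versions 1.7.0.2 and 1.7.0.3) and the build BDGP5; parameters and the way the 3 ChIP and 3 input libraries were combined are not stated there, nor whether replicates were separate collections.

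A peak belonged to a complex if it overlapped its window by at least 1 bp. Densities have exact Poisson intervals, their ratios exact conditional binomial intervals, shares Clopper-Pearson intervals and medians order-statistic intervals, all at 95%. No p-value was computed, since peaks are not replicates. Gaps run between peak edges on 3R. The length of 3R was taken as its furthest peak end. All 29 peaks are named, as the rule for named items required. The counting functions were tested on simulated data. The members, windows and comparisons were chosen with earlier results of these data known. Promoter motifs and peak sequences were not analysed here because no genome or promoter sequence was used. Computations ran in Python 3.11.15 with scipy 1.17.1, pandas 2.3.3 and numpy 2.4.6, and plots in matplotlib 3.10.9.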

Additional observations from a re-analysis of the deposited data

How the results depend on the processing

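Of 58 alternative values, 48 stayed within the interval of the main value or, for peak numbers, within 1.5 times of it. For the difference in medians, that interval was the range spanned by the ends of both median intervals, -25.0 to 133, so wide that staying inside it says little. Membership by peak centre changed none of these values. Windows widened or narrowed by 25 kb moved none of them beyond its interval or, for peak numbers, beyond 1.5 times. The density ratio of both complexes to the rest of 3R, 1.64 (1.09 to 2.37), was not among the results recomputed. Whether its interval stays above 1 with other window ends was not tested. Restricting the list to its upper 50% by score left 10 bithorax and 7 Antennapedia peaks, and to its upper 25% 4 and 2, by construction, with median scores of 194 and 109. The density ratio, bithorax over Antennapedia, was 1.52 and 2.12 in these lists, from 10 against 7 and 4 against 2 peaks, and was 1.27 with runs counted once and 0.919 with peaks within 1 kb counted once. With the upper 25% in place of the upper 50%, the share of strong peaks was 28.6% in the bithorax and 13.3% in the Antennapedia complex, and with the upper 10%, chosen after seeing the data, 21.4% and 0%. The bithorax share with a neighbour was 85.7% at 20 kb. The difference in median score, bithorax minus Antennapedia, ran from 17.1 to 84.7 and was positive under the alternatives run for it. The value of 84.7 came from the upper 25% of the list, with 4 against 2 peaks. These alternatives reuse the same peaks, so the constant sign adds no evidence of a difference. No paired analysis was possible because each peak has a single score for all libraries together, and no replicate could be left out. The depth per library is unknown, so weak sites hidden by depth cannot be counted.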
